A study of Mus musculus with 12 samples.

Results

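The genes described here are the antiviral interferon-stimulated genes of the mouse heart, a list of 47 genes whose transcription is switched on by interferons. Many of their products block viral entry, RNA, translation or release, and others sense nucleic acid, carry the interferon signal or restrain it. The list was fixed by name, with earlier results of these data known, so counts of its members describe the list and do not test it. A member's expression was the sum of FPKM (a fragment count corrected for transcript length and sequencing depth) over its annotated transcripts. Of the 47 listed genes, 46 were held in the deposited data among 12866 genes in all; Mndal was not analysed here. RNA of whole hearts, depleted of ribosomal RNA, was sequenced from wild-type C57BL/6 mice in 3 groups of 4 libraries, 1 heart sample each. Control mice were given saline alone. LPS mice were given 10 mg/kg of lipopolysaccharide and saline. LPS+XJDHT mice were given the same lipopolysaccharide dose, 10 mg/kg, together with XJDHT, a Chinese herbal decoction (Xijiao Dihuang), at a daily dose of 50 mg/kg; each treatment ran for 3 days. Age and sex are not given in the labels used here, and no group received XJDHT without LPS, so XJDHT can be compared only within endotoxin-treated hearts. Nothing in the labels beyond the animal numbers says how the mice were housed or handled, and p-values measure the spread between these samples.

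Lipopolysaccharide, a cell envelope component of Gram-negative bacteria also called endotoxin, is sensed by TLR4, and TLR4 signals through TICAM1 (TRIF) to the kinases TBK1 and IKBKE and to IRF3, which switches on interferon-beta. Secreted type I interferon binds the receptor IFNAR1 and IFNAR2, the kinases JAK1 and TYK2 are activated, and a complex (ISGF3) that holds STAT2 and IRF9 binds the interferon-stimulated response element in the promoters of interferon-stimulated genes. The gamma-activated site is another element of interferon-responsive promoters. In the heart these genes are best known for restraining cardiotropic viruses, and in endotoxin-treated tissue they are transcribed without any virus.

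Of the promoters of these genes 6 are printed, to show where matches to the response element lie near the start in 5 members that rose with LPS, each from another functional class, and how the window reads in Cmpk2, a member that did not. The 5 were picked because they hold a match, so their contrast with Cmpk2 was set by the choice. Windows without a match also occurred in members that rose, among them Lgals3bp, Xaf1 and Phf11d. Trim30a, which did not pass, held a match. These are not printed. Each run is the RefSeq promoter (GRCm38.p6), 250 bases before the transcript start to 50 bases after it, on the gene's own strand, 5′ to 3′. Capitals mark each match to the core of the response element, GAAA, any 2 bases, GAAA, searched on both strands, so that a match on the other strand reads TTTC, any 2 bases, TTTC; matches that overlap are merged.
Ifit3: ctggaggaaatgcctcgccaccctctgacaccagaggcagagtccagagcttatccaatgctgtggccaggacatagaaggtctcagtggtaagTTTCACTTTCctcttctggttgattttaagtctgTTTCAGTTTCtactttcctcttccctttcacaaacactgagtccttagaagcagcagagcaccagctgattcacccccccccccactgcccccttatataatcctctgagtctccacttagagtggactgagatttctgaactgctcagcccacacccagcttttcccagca
Isg15: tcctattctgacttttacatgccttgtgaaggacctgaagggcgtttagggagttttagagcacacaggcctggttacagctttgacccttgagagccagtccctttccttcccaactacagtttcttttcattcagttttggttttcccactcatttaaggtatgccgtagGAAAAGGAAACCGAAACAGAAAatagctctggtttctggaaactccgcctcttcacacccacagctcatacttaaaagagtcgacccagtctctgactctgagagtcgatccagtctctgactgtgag
Rsad2: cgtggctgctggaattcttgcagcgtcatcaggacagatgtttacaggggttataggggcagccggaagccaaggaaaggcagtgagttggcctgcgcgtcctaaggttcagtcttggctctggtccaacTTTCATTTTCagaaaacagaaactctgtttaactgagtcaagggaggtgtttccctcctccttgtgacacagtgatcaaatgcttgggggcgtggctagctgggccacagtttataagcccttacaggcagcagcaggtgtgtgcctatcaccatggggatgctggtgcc
Ddx58: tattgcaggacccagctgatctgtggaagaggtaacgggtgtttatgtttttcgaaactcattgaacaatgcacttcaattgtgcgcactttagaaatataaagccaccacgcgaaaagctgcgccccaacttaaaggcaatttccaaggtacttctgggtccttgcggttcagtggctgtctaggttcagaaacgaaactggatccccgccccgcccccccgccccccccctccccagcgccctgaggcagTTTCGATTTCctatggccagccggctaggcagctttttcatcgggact
Ifitm3: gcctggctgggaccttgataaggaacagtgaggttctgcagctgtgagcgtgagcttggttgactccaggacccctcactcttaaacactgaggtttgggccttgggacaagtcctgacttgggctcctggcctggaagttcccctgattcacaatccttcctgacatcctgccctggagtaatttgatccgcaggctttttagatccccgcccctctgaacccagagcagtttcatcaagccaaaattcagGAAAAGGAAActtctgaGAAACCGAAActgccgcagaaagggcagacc
Cmpk2: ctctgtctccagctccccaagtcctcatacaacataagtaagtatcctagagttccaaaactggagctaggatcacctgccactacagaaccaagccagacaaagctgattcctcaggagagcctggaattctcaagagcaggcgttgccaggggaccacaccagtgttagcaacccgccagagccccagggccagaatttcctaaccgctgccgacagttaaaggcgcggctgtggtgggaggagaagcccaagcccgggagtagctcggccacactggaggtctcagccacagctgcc
The windows lie at chr19:34583279-34583578 on the plus strand for Ifit3, chr4:156200769-156201068 on the minus strand for Isg15, chr12:26456403-26456702 on the minus strand for Rsad2 and chr4:40239776-40240075 on the minus strand for Ddx58. The Ifitm3 window is chr7:141010695-141010994 on the minus strand, and that of Cmpk2 is chr12:26468965-26469264 on the plus strand. In Ifit3 the matches began 156 and 122 bases before the start. In Isg15, 3 overlapping matches began 78, 72 and 66 bases before it. The match of Rsad2 began 120 bases before the start, whereas that of Ddx58 lay just inside the transcript, 3 bases after its start, and the matches of Ifitm3 began 3 and 20 bases after it. Rsad2 and Cmpk2 are neighbours that are transcribed away from each other, and the window of Cmpk2 held no match.

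Of the 47 listed genes, 35 had a RefSeq promoter window, and 17 of these (48.6%) held the response element core in at least 1 window, beside 3.99% of 27025 genes with a window. Counted by window, the share was 40.4% of 47 windows of the listed genes and 3.44% of 32851 windows in all. The gamma-activated site core TTCNNNGAA, which reads the same on both strands, was held by 10 of the 35 (28.6%) and by 9.55% of all genes; its matches can overlap those of the other motif, as in Ifitm3. Among the 29 members with a window that rose with LPS, 14 held the response element core and 10 held TTCNNNGAA. Of the 4 with a window that were tested and did not pass, Trim30a held that core and none held TTCNNNGAA. The other matches to it were in Ifit1, Ifit3b, Oas1a, Oas3, Ifih1, Eif2ak2, Ifitm2, Bst2, Stat2, Shisa5 and Mndal, and a match is a description of the letters in the window. No window was used for Ifi204, Usp18, Zbp1, Rtp4, Ifi27, Dhx58, Parp14, Mx2, Parp9, Ly6e, Oas2 and Mx1.

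Depth was even: the steps between values put the libraries at 73.76 M to 77.81 M fragments (M, mega), on average 76.4 ± 1.35 M in Control, 75.9 ± 1.48 M with LPS and 75.9 ± 1.68 M with LPS+XJDHT (SD, n = 4). Genes reaching 1 FPKM in at least 4 of the 12 libraries were tested, 11509 in all, and 45 of the 46 members were among them; Oas3 was not. Of the 45 members, 32 were at 1 FPKM or more in all 4 Control libraries, and the other 13 reached the limit only with the help of the LPS and LPS+XJDHT libraries. Of the 10 cardiomyocyte markers, all were held, and their summed level was 22960 to 24140 FPKM in the Control libraries. Among the other cell types the hearts could hold, B cell markers were not listed (0 of 5 held) and of the T and NK cell markers only Gzmb was listed (1 of 10 held), at 0 to 0.111 FPKM in Control, 0.681 to 1.25 FPKM with LPS and 0.374 to 1.38 FPKM with LPS+XJDHT, too low to be tested. The library LPS+XJDHT 2 stood apart in its Y-linked genes, 4 of which summed to 0.205 FPKM there and to between 20.4 and 61.9 FPKM in the other 11 libraries. The libraries LPS 3 and LPS+XJDHT 2 had the lowest levels of the antiviral genes in their groups, and results that rest on them are given with and without them.

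The comparison of LPS with Control asks how endotoxin changed these genes in the heart. With LPS, 37 of the 45 tested members rose and 0 fell by limma on log2(FPKM + 1) at a Benjamini-Hochberg adjusted p below 0.05. Over all genes tested 26.6% rose and 12% fell. At an unadjusted limma p under 0.05 were 39 of the 45 members and 5478 of all 11509 genes tested. Median-ratio scaling of the libraries moved the median log2 fold change of all genes from 0.16 to 0.008 and the split of all calls from 3063 higher and 1384 lower to 2145 and 2112, and 36 members then rose and 0 fell. The median log2 fold change was 1.45 over the tested members and 0.16 over all genes tested, and it was 1.43 over the 46 members held with no limit on low values. Of the 37, 36 rose by at least 1 on the log2 scale, 14 by at least 2 and 3 by at least 4. The 3 past 4 were Ifit3, Ifit1 and Lgals3bp, the last only over transcripts listed for all 3 groups and at 2.77 over every transcript listed for Control and LPS. In 35 of the tested members every LPS library lay above every Control library, which was so for 25.3% of all genes tested. Ifit3b, Stat2 and Shisa5 rose with groups that overlapped, and Ifi44 lay apart without passing. Of the 32 members at the limit in all Control libraries, 29 rose. Because 1 FPKM is added before the logarithm, fold changes of members near or below 1 FPKM are understated. In whole hearts, a change in the number of cells of a type and a change of RNA per cell cannot be told apart.

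**Figure D1:**
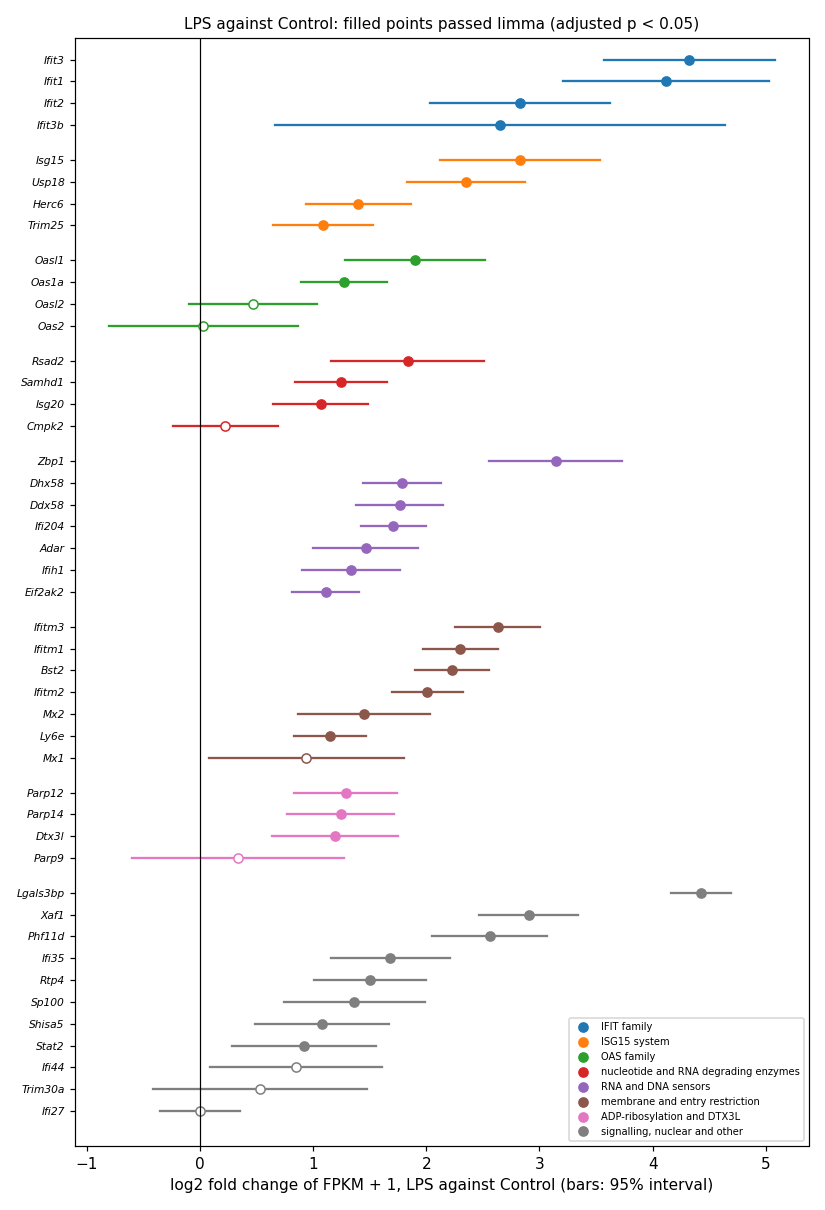
Log2 fold change of FPKM + 1 in LPS against Control for the 45 tested members (x axis), ordered within each functional class (y axis), with 95% intervals as bars. Filled points passed limma; 37 points are filled, all to the right of 0, and the 8 open points are Oasl2, Oas2, Cmpk2, Mx1, Parp9, Ifi44, Trim30a and Ifi27.

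The IFIT proteins bind viral RNA that lacks the host's cap methylation and keep it from being translated, and all 4 members measured rose. Ifit1 (chr19:34640871-34650009) was at 2.85, 2.64, 1.67 and 2.69 FPKM in Control, against 84.9, 84.9, 22.7 and 71.1 FPKM with LPS. Values are in the order of libraries 1 to 4 here and below. Every LPS library was above every Control library, and LPS 3 was far below the other 3, with a log2 fold change of 4.12 ± 0.41 (± SE; adjusted p = 2.4e-05). Ifit3 (chr19:34583531-34588731) was at 6.56, 4.56, 3.84 and 5.39 FPKM in Control, against 175, 132, 71.6 and 122 FPKM with LPS. The groups did not overlap, and the log2 fold change was 4.33 ± 0.35 (adjusted p = 4.4e-06). Ifit2 (chr19:34550694-34576419) was at 4.44, 3.86, 3.4 and 2.38 FPKM in Control, against 40.2, 47.5, 14.7 and 31.2 FPKM with LPS, again apart and again lowest in LPS 3 (2.83 on the log2 scale, adjusted p = 0.00012). Ifit3b (chr19:34607970-34613401), a near-identical neighbour of Ifit3, was at 2.5, 0, 0.816 and 2.17 FPKM in Control, against 0.378, 21.9, 22 and 42 FPKM with LPS. Its value in LPS 1 lay among the Control values, in the library where Ifit3 was highest, and its log2 fold change of 2.65 ± 0.91 had adjusted p = 0.037. The reads of such copies can be split between them, so each of the pair is uncertain by itself. Their sum was 9.06, 4.56, 4.65 and 7.56 FPKM in Control and 175, 154, 93.6 and 164 FPKM with LPS, with no overlap. The call of Ifit3b was lost under several alternatives, with adjusted p between 0.051 and 0.20, among them leaving out Control 2, 3 or 4 or LPS 2, 3 or 4.

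ISG15 is a ubiquitin-like protein that is secreted and also attached to other proteins, and all 4 genes of its system that were measured rose. Isg15 (chr4:156199424-156200818) was at 6.23, 4.56, 5.76 and 5.46 FPKM in Control, against 49.6, 80.1, 23.5 and 43.1 FPKM with LPS. The lowest LPS value, in LPS 3, was still above every Control value, and the log2 fold change was 2.83 ± 0.32 (adjusted p = 5.5e-05). Usp18 (chr6:121245906-121270917), the protease that removes ISG15 and also restrains signalling at the interferon receptor, was at 1.51, 1.07, 2.33 and 1.65 FPKM in Control, against 12.2, 17.4, 8.06 and 13.3 FPKM with LPS. It rose by 2.35 on the log2 scale (adjusted p = 2.4e-05). Herc6 (chr6:57581000-57664632), the main ISG15 ligase of the mouse, was at 1.25, 1.14, 0.801 and 1.53 FPKM in Control, against 5.85, 5.52, 3.37 and 4.49 FPKM with LPS, a log2 fold change of 1.40 ± 0.21 with no overlap (adjusted p = 0.00036). Trim25 (chr11:88999376-89020293), a ubiquitin ligase that acts on the sensor RIG-I, was at 5.71, 2.41, 4.26 and 5.57 FPKM in Control, against 9.67, 13.1, 10.5 and 8.31 FPKM with LPS. Its groups did not overlap either (1.09 on the log2 scale, adjusted p = 0.0014).

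The oligoadenylate synthetases are activated by long base-paired RNA and make the messenger that activates RNase L. Of this family 2 of the 4 tested rose. Oasl1 (chr5:114923240-114937915), which lacks the synthetase activity and holds back the translation of Irf7, was at 1.42, 0.757, 0.678 and 0.842 FPKM in Control, against 7.92, 10.4, 3.66 and 4.36 FPKM with LPS, and Oas1a (chr5:120896256-120907521) was at 1.75, 1.89, 1.23 and 2.0 FPKM against 4.63, 5.19, 4.79 and 8.0 FPKM. Both were higher in every LPS library, with log2 fold changes of 1.90 ± 0.28 (adjusted p = 0.00033) and 1.27 ± 0.17 (adjusted p = 0.00019). Oasl2 (chr5:114896936-114912234) overlapped between groups, at 4.87, 2.95, 4.14 and 5.83 FPKM in Control, against 4.73, 5.64, 8.88 and 6.96 FPKM with LPS (log2 fold change 0.47 ± 0.26, adjusted p = 0.18). It passed by limma-voom on recovered fragments (adjusted p = 0.037) and over coding transcripts alone (adjusted p = 0.019). Oas2 (chr5:120730333-120749853) was near the limit, at 0.021, 0.368, 0.777 and 1.3 FPKM in Control, against 0, 1.73, 0.080 and 1.1 FPKM with LPS, and showed no direction (log2 fold change 0.03 ± 0.38, adjusted p = 0.96). Oas3, below the limit, was between 0.011 and 0.090 FPKM in Control and between 0.613 and 0.870 FPKM with LPS. It was left out of the test, and with no limit on low values it counted among 38 members that rose. The values of Oas1a, Oas2 and Oas3 come from a cluster of related genes and may share reads.

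Of 4 enzymes that deplete or alter nucleotides or degrade RNA, 3 rose. Rsad2 (viperin; chr12:26442746-26456452), which makes a chain-terminating nucleotide from CTP, was at 4.75, 4.94, 5.43 and 5.59 FPKM in Control, against 25.8, 33.5, 10.5 and 21.1 FPKM with LPS. All LPS libraries were higher, LPS 3 by the least, and the log2 fold change was 1.83 ± 0.31 (adjusted p = 0.00075). Cmpk2 (chr12:26469204-26479837), a mitochondrial nucleotide kinase next to Rsad2, was at 4.18, 3.54, 3.94 and 4.14 FPKM in Control, against 4.32, 7.88, 3.15 and 4.67 FPKM with LPS. LPS 3 was below all Control libraries and the other 3 LPS libraries above them all, and the difference did not pass (log2 fold change 0.23 ± 0.21, adjusted p = 0.44). Samhd1 (chr2:157097533-157135265), which breaks down deoxynucleotides, was at 7.95, 6.81, 8.38 and 9.44 FPKM in Control, against 23.7, 21.2, 16.6 and 21.5 FPKM with LPS. Isg20 (chr7:78913424-78920396), an RNA exonuclease, was at 2.08, 3.91, 1.91 and 2.07 FPKM in Control, against 7.32, 6.63, 5.03 and 5.79 FPKM with LPS. Neither overlapped between groups, and they rose by 1.25 on the log2 scale (adjusted p = 0.00033) and 1.07 on the log2 scale (adjusted p = 0.0011).

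All 7 tested sensors of foreign RNA or DNA and effectors that bind them rose, and in each every LPS library was above every Control library. Zbp1 (chr2:173206612-173218923), a sensor of left-handed nucleic acid that starts necroptosis, was at 1.04, 1.17, 0.532 and 0.973 FPKM in Control, against 14.7, 26.1, 9.61 and 17.1 FPKM with LPS, the largest change of the class (log2 fold change 3.14 ± 0.27, adjusted p = 7.1e-06). By transcript, the log2 fold change of Zbp1 was 0.98 for Zbp1-201 (411 residues), 3.05 for Zbp1-202 (187 residues) and 1.76 for the retained-intron Zbp1-203. The change of Zbp1-201, the longest coding transcript, was thus smaller than that of the gene. The RIG-I-like receptors rose together. Ddx58, which encodes RIG-I (chr4:40203773-40239828), was at 3.99, 3.08, 3.66 and 4.29 FPKM in Control, against 17.1, 15.9, 10.5 and 18 FPKM with LPS, and Dhx58 (LGP2; chr11:100694884-100704271) was at 0.885, 0.647, 0.983 and 0.814 FPKM against 5.29, 5.49, 3.98 and 6.73 FPKM. Their log2 fold changes were 1.76 ± 0.17 (adjusted p = 2.1e-05) and 1.78 ± 0.16 (adjusted p = 8.8e-06). Coding transcripts made up 46.6% of the Ddx58 level in Control and 40.5% with LPS. Over these alone, an alternative chosen after seeing the data, the log2 fold change of Ddx58 was 1.35 ± 0.20. Ifih1 (MDA5) rose from 1.65 ± 0.263 FPKM (SD, n = 4) to 5.63 ± 0.292 FPKM, a log2 fold change of 1.33 ± 0.20. Ifi204 (chr1:173747293-173766943), a DNA sensor of the PYHIN family, was at 5.35, 4.07, 3.27 and 4.07 FPKM in Control, against 15.3, 15.2, 14.9 and 17.8 FPKM with LPS. LPS 4 was the highest by some distance, and the log2 fold change was 1.71 ± 0.13 (adjusted p = 3.5e-06); PYHIN genes resemble each other and may share reads. Eif2ak2 (PKR), which stops translation when it binds base-paired RNA, rose from 3.21 ± 0.103 to 8.23 ± 1.62 FPKM (log2 fold change 1.11 ± 0.14). Adar, the RNA editing enzyme that keeps the cell's own RNA from being sensed, rose from 1.48 ± 0.807 to 5.6 ± 0.818 FPKM (log2 fold change 1.46 ± 0.21).

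Of the 7 tested genes whose products act at membranes or on entering or leaving virus particles, 6 rose, and this class held the most abundant members. Ifitm3 (chr7:141009586-141010770), which hinders the fusion of virus with endosomes, was at 91.4, 108, 76.4 and 73.5 FPKM in Control, against 546, 625, 408 and 612 FPKM with LPS. Ifitm2 (chr7:140954837-140955987) was at 68.8, 82, 63.4 and 58.6 FPKM in Control, against 335, 243, 248 and 286 FPKM with LPS, and Ifitm1 (chr7:140967221-140969825) was at 2.2, 2.15, 1.93 and 2.44 FPKM against 14.9, 11.5, 15.5 and 17.1 FPKM. These 3 neighbours did not overlap between groups, and their log2 fold changes were 2.63 ± 0.17 (adjusted p = 1.2e-06), 2.01 ± 0.14 (adjusted p = 2e-06) and 2.30 ± 0.15 (adjusted p = 1.3e-06). Bst2 (tetherin; chr8:71534255-71537456), which holds budding virus at the cell surface, was at 18.9, 23.2, 19.1 and 21.3 FPKM in Control, against 99, 103, 94.9 and 103 FPKM with LPS. The LPS libraries were close together and far above Control (log2 fold change 2.23 ± 0.15, adjusted p = 1.4e-06). Ly6e, a membrane-anchored protein that hinders entry of coronaviruses, rose from 62.5 ± 7.05 to 139.6 ± 13.5 FPKM (log2 fold change 1.15 ± 0.14). Mx2 (chr16:97535308-97560900), annotated as a polymorphic pseudogene, rose from 0.326 ± 0.184 to 2.8 ± 1.44 FPKM (log2 fold change 1.45 ± 0.27). Mx1 (chr16:97447035-97462907), whose coding sequence is disrupted in C57BL/6 and many other laboratory strains, was at 0, 0, 0.087 and 0 FPKM in Control, against 0.867, 1.64, 0.013 and 1.93 FPKM with LPS. These values are of Mx1-203, its only transcript listed for all groups, which is annotated as a target of nonsense-mediated decay. Mx1 was above every Control value in 3 LPS libraries, at no more than 1.93 FPKM, and at the Control level in LPS 3. It did not pass (log2 fold change 0.94 ± 0.39, adjusted p = 0.081). Without LPS 3 it passed at 1.26 (limma adjusted p = 0.019), and with Control and LPS fitted alone at 0.94 (limma adjusted p = 0.045).

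The ADP-ribosyltransferases of this response and the ubiquitin ligase DTX3L, which works with PARP9, lie close together on chromosome 16 apart from Parp12, and 3 of the 4 rose. Parp12 (chr6:39086410-39118349) was at 3.97, 5.55, 4.33 and 6.79 FPKM in Control, against 18, 14.2, 9.69 and 14.7 FPKM with LPS, and Parp14 (chr16:35832874-35871544) was at 3.27, 3.19, 4.18 and 4.53 FPKM against 11.9, 13.4, 7.63 and 9.01 FPKM. Dtx3l (chr16:35926511-35939151) was at 2.97, 2.66, 3.73 and 3.35 FPKM in Control, against 12.2, 10.8, 4.88 and 7.91 FPKM with LPS. All 3 lay apart from Control in every library, with log2 fold changes of 1.29 ± 0.21 (adjusted p = 0.00057), 1.24 ± 0.22 (adjusted p = 0.00091) and 1.19 ± 0.25 (adjusted p = 0.0033). Parp9 (chr16:35938470-35972605) was at 0.538, 0.068, 0.992 and 3.48 FPKM in Control, against 1.05, 3.89, 1.01 and 0.837 FPKM with LPS. Control 4 and LPS 2 were high and the other 6 low, so no difference passed (log2 fold change 0.34 ± 0.43, adjusted p = 0.57). Parp9 and Dtx3l overlap at their starts on opposite strands, and whether the authors' counting used strand is something not given in the sources used here.

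Of the 11 remaining tested members, which act in signalling, in the nucleus or in ways less well defined, 8 rose. Lgals3bp (chr11:118392751-118402092), a secreted glycoprotein that binds galectins, was at 5.58, 6.27, 5.46 and 6.82 FPKM in Control, against 160.3, 153, 129 and 158 FPKM with LPS, the largest change of all members over the transcripts listed for all 3 groups (log2 fold change 4.42 ± 0.12, adjusted p = 1.6e-09). Xaf1 (chr11:72301629-72313733), a promoter of apoptosis, was at 3.06, 3.75, 4.67 and 3.69 FPKM in Control, against 44.7, 38, 24.7 and 34.3 FPKM with LPS. Phf11d (chr14:59347407-59365470) was at 3.42, 4.43, 3.63 and 4.29 FPKM against 34.3, 33.5, 17.8 and 30.0 FPKM, and Ifi35 (chr11:101448407-101458698) was at 6.91, 7.69, 4.96 and 8.14 FPKM against 23.9, 24.5, 22.6 and 25.5 FPKM. In all 4 the groups lay apart, with log2 fold changes of 2.91 ± 0.20 (adjusted p = 1.8e-06), 2.56 ± 0.23 (adjusted p = 1.1e-05) and 1.68 ± 0.24 (adjusted p = 0.00025) for the last 3. Rtp4, which lowers the interferon response, rose from 2.9 ± 1.46 to 9.64 ± 1.46 FPKM, and Sp100, a part of nuclear bodies, from 0.695 ± 0.440 to 3.52 ± 1.57 FPKM. Shisa5 rose from 22.7 ± 3.37 to 52.5 ± 19.5 FPKM, with LPS 3, at 24.0 FPKM, inside the Control range. Stat2, a subunit of ISGF3, rose from 3.88 ± 1.0 to 8.9 ± 4.8 FPKM (log2 fold change 0.92 ± 0.29, adjusted p = 0.026), and Control 4 was above LPS 3. The call of Stat2 was lost under median-ratio scaling (adjusted p = 0.064), by limma-voom (adjusted p = 0.085) and without Control 1, 2 or 3 or LPS 1 or 2 (adjusted p between 0.051 and 0.063).

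The last 3 did not pass. Ifi44 (chr3:151730922-151749960) was at 0.866, 0.718, 1.5 and 1.59 FPKM in Control, against 2.02, 3.07, 2.85 and 3.62 FPKM with LPS, apart in every library (log2 fold change 0.85 ± 0.35, adjusted p = 0.073). It passed when the groups were fitted without the LPS+XJDHT libraries (adjusted p = 0.010), whose values for this gene were widely spread. Trim30a (chr7:104409025-104465193), which restrains TLR signalling, was at 0, 0.544, 2.59 and 2.87 FPKM in Control, against 0.711, 3.11, 2.73 and 2.57 FPKM with LPS and overlapped (log2 fold change 0.53 ± 0.43, adjusted p = 0.36). Ifi27 (chr12:103434211-103440239), a small mitochondrial and nuclear membrane protein, was at 11.9, 14, 10.8 and 13 FPKM in Control, against 14.8, 10.1, 10.5 and 14.8 FPKM with LPS. Its summed level differed by less than the spread between libraries (log2 fold change -0.00 ± 0.16, adjusted p = 0.99), although 2 of its transcripts moved in opposite directions.

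**Figure D2:**
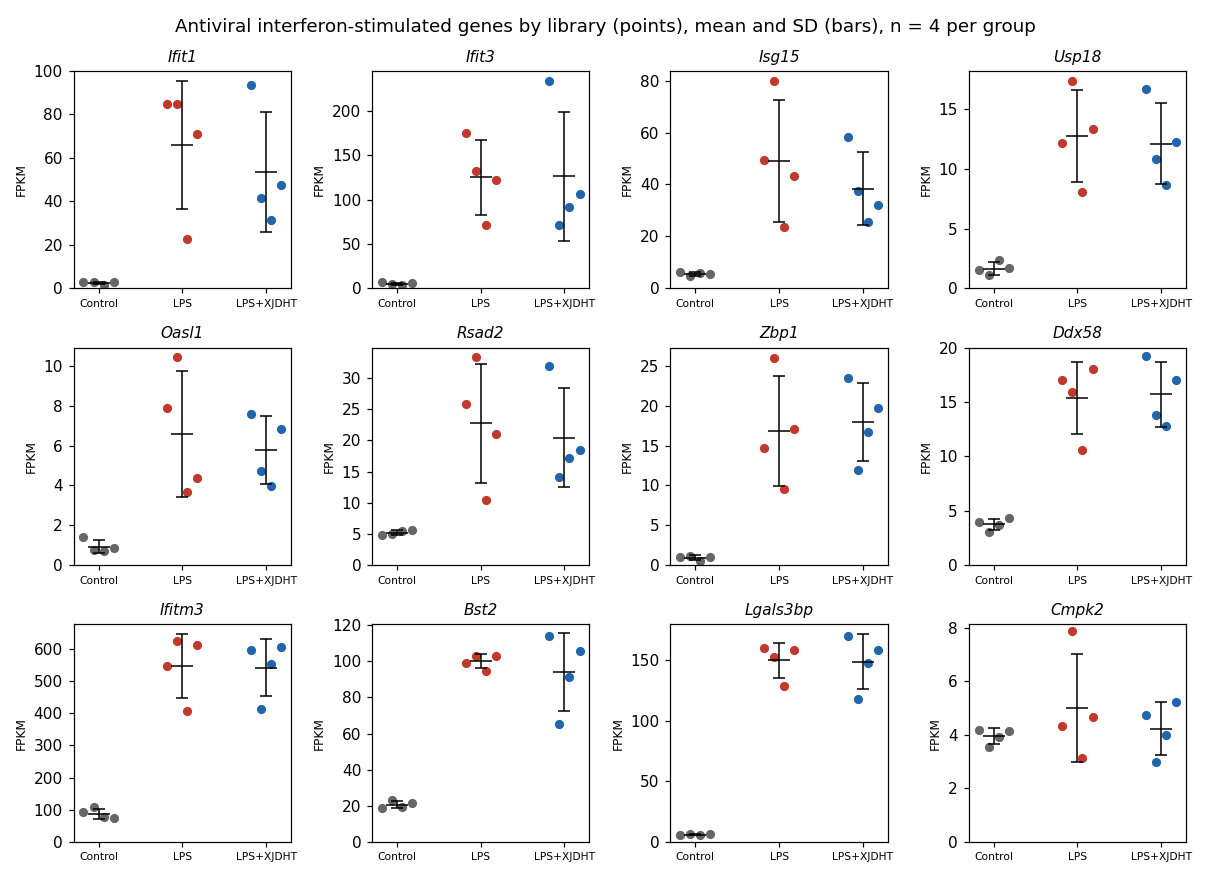
FPKM (y axis, from 0) of 12 members in each library of the 3 groups (x axis), with the mean and SD of 4 libraries as bars. In 11 of the panels the 4 Control points lie below all points of the other groups, and in Cmpk2 the groups overlap.

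The deposited values are per transcript, and 91 transcripts of the 45 tested members were tested, with at least 2 from 17 members. With LPS 54 of them rose and 3 fell (adjusted p below 0.05), beside 17.3% and 8.26% of the 18644 transcripts tested. The 3 that fell were Ifi27-208, Ly6e-212 and Shisa5-201, each from a gene with another transcript that rose. In Ifi27 the coding transcript Ifi27-205 (260 residues) was at 0.977, 1.54, 2.71 and 1.58 FPKM in Control, against 9.30, 7.15, 5.13 and 7.47 FPKM with LPS. It rose by 1.63 on the log2 scale (adjusted p = 0.0014). The retained-intron transcript Ifi27-208 was at 1.41, 2.54, 3.41 and 3.00 FPKM in Control, against 0.401, 0.021, 0.862 and 0.536 FPKM with LPS, and fell by 1.30 (adjusted p = 0.0020). Neither transcript overlapped between groups. Retained-intron transcripts made up 61.2% of the Ifi27 level in Control, 19.3% with LPS and 35.7% with LPS+XJDHT. Summed over coding transcripts alone, an alternative chosen after seeing the data, Ifi27 rose by 0.96 (adjusted p = 0.018), from 4.83 ± 1.38 to 10.1 ± 1.29 FPKM.

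In Shisa5, whose protein takes part in apoptosis, Shisa5-201 (235 residues) was at 15.7, 16.8, 11.6 and 13.1 FPKM in Control, against 4.12, 3.15, 12.3 and 2.11 FPKM with LPS (log2 fold change -1.47, adjusted p = 0.013). Shisa5-202 (236 residues), which starts slightly upstream, was at 1.90, 2.52, 1.66 and 1.65 FPKM in Control, against 13.6, 11.4, 9.02 and 39.9 FPKM with LPS (log2 fold change 2.50, adjusted p = 0.0025). LPS 3 stood out by keeping Shisa5-201 in the Control range. The retained-intron transcript Shisa5-213 was at 34.6 and 33.9 FPKM in LPS 1 and LPS 2 but at 0.218 and 4.75 FPKM in LPS 3 and LPS 4, and did not pass (adjusted p = 0.10). Over coding transcripts alone, the calls of Shisa5 (adjusted p = 0.10), Ly6e (adjusted p = 0.13) and Stat2 (adjusted p = 0.12) were lost, and Oasl2 passed (log2 fold change 1.00, adjusted p = 0.019). Its coding transcript Oasl2-201 (508 residues) was at 0.560, 2.12, 2.65 and 0.895 FPKM in Control, against 3.06, 2.99, 4.90 and 4.62 FPKM with LPS, with no overlap (adjusted p = 0.031). Transcripts this alike share most of their reads, and how the authors divided them is not given in the sources used here.

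ADAR is made as a long, interferon-inducible protein and as a shorter constitutive one. Adar-203 (1178 residues) was at 2.17, 0.009, 2.17 and 0.308 FPKM in Control, against 4.59, 5.32, 4.61 and 1.52 FPKM with LPS. Adar-202 (930 residues) was at 0, 0.967, 0 and 0.306 FPKM in Control, against 1.89, 0, 0.004 and 4.49 FPKM with LPS. Where one was low in a library the other tended to be high, neither passed alone (adjusted p = 0.058 and 0.45), and their sum, from 0.614 to 2.17 FPKM in Control and from 4.61 to 6.48 FPKM with LPS, lay apart. In Lgals3bp the size of the change depended on which transcripts were counted. Its full-length transcript Lgals3bp-201 (577 residues) rose from 5.80 ± 0.614 to 147 ± 14.8 FPKM. A short transcript, Lgals3bp-205 (138 residues), was listed only in the Control and LPS files, at 15.0, 15.4, 14.2 and 15.7 FPKM in Control, against 0.271, 0.019, 0.038 and 0.295 FPKM with LPS. When it was counted, Lgals3bp went from 21.1 ± 1.21 to 150 ± 14.7 FPKM and its log2 fold change was 2.77 (adjusted p = 1.5e-06) in place of 4.42. Sp100 also had transcripts listed for these groups alone, and with them its log2 fold change was 0.78 (adjusted p = 0.0064) in place of 1.36.

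**Figure D3:**
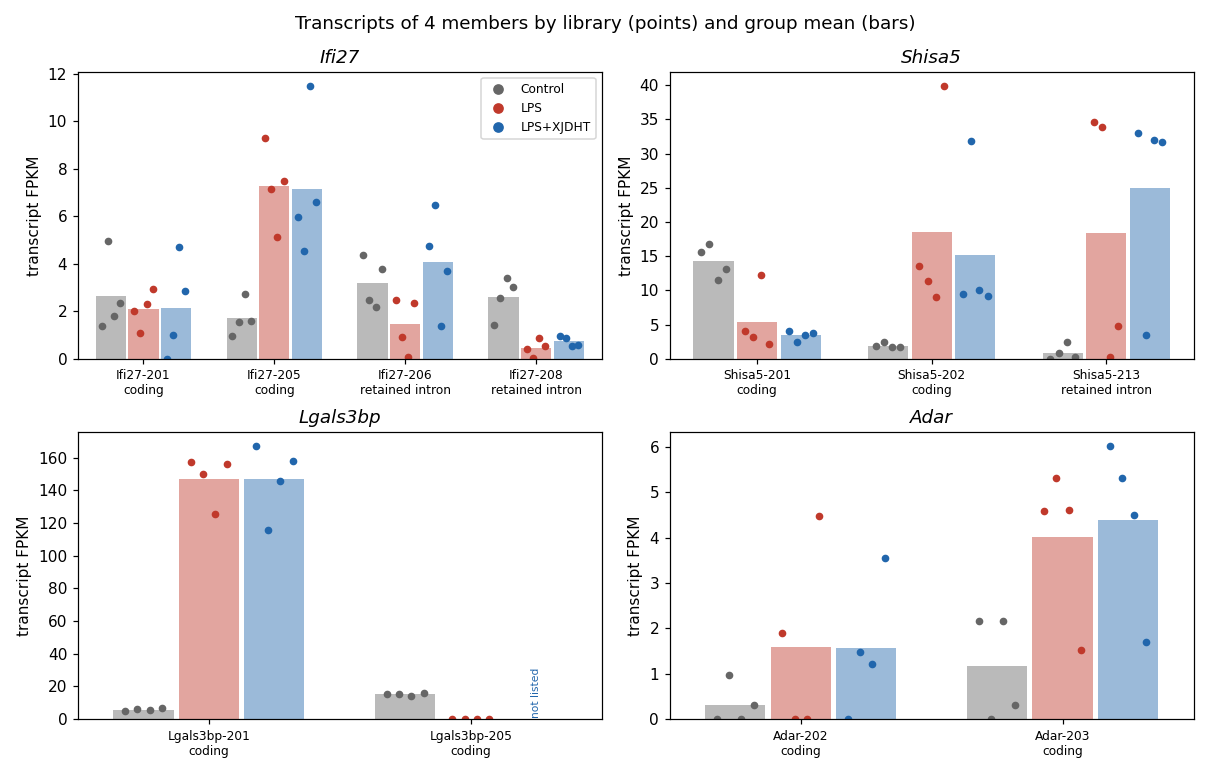
Transcript FPKM (y axes, from 0) of Ifi27, Shisa5, Lgals3bp and Adar by library (points) and group mean (bars) in the 3 groups (colours). Ifi27-208 and Shisa5-201 are lower with LPS while Ifi27-205 and Shisa5-202 are higher, and Lgals3bp-205 is high in Control only and not listed for LPS+XJDHT.

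The genes that sense LPS, make interferon or carry its signal were counted from lists chosen for the pathway, and the counts of each list follow, beside 26.6% of all genes tested that rose and 12% that fell. Of 20 interferon genes none was held in the data, so the level of the ligands was not analysed here. Of 9 receptor and kinase genes 8 were tested; Ifnar2 rose from 9.23 ± 2.67 to 17.5 ± 0.721 FPKM (log2 fold change 0.89 ± 0.15, adjusted p = 0.00088) and Ifngr1 by 0.42 on the log2 scale (adjusted p = 0.019), while Ifngr2 fell by 0.53 (adjusted p = 0.0021). Jak1 was at 38.3, 1.42, 1.56 and 26.6 FPKM in the LPS libraries and between 25.4 and 29.4 FPKM in Control. Of 7 interferon regulatory factors (IRF) 3 rose. Irf7, which amplifies interferon production and is itself an interferon-stimulated gene, was at 2.16, 1.41, 2.72 and 3.39 FPKM in Control, against 42.9, 37.6, 32.5 and 41.3 FPKM with LPS (log2 fold change 3.56 ± 0.18, adjusted p = 2.2e-07). The others that rose were Irf8 (log2 fold change 1.43 ± 0.24, adjusted p = 0.00067) and Irf9, the partner of STAT2 in ISGF3 (1.34 ± 0.34, adjusted p = 0.0085). Irf1 overlapped, at 9.05, 8.22, 9.2 and 5.8 FPKM in Control, against 1.26, 2.63, 8.71 and 6.18 FPKM with LPS (adjusted p = 0.15).

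Of 11 tested genes that lead from TLR4 and the RNA and DNA sensors to interferon, 4 rose and 1 fell. Ikbke rose from 0.352 ± 0.137 to 4.96 ± 0.861 FPKM (log2 fold change 2.13 ± 0.15, adjusted p = 2.2e-06), Ticam1 by 1.35 on the log2 scale (adjusted p = 0.0044), and Tmem173 (STING) and the LPS co-receptor Cd14 by less. Mavs, the mitochondrial adaptor through which RIG-I and MDA5 signal, fell from 16.7 ± 2.55 to 6.13 ± 1.4 FPKM (log2 fold change -1.32 ± 0.20, adjusted p = 0.00038), while Ddx58 and Ifih1 rose. Of 8 tested negative regulators 5 rose, led by Socs3 (2.48 ± 0.20, adjusted p = 4.1e-06), Ptpn2 (1.53 ± 0.24, adjusted p = 0.00043) and Nlrc5 (1.33 ± 0.23, adjusted p = 0.00093) as log2 fold changes, with Ptpn6 and Trex1, and Irf2bp1 fell. Of the 4 tested genes of ISG15 conjugation and RNase L, 3 rose: Ube2l6, the enzyme that hands on ISG15 (log2 fold change 1.29 ± 0.27, adjusted p = 0.0030), Ube2e2 (1.26 ± 0.26, adjusted p = 0.0028) and Pde12 (0.50 ± 0.16, adjusted p = 0.029). Uba7, which activates ISG15, was at 3.01 ± 1.39 FPKM in Control and 5.02 ± 0.980 FPKM with LPS (adjusted p = 0.057). The calls of Ifngr1, Tmem173, Trex1, Irf2bp1 and Pde12 were each lost under at least 1 alternative, with adjusted p of up to 0.17, 0.074, 0.081, 0.057 and 0.088 in that order.

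Markers of several cell types were followed in the same contrast, and the lists differed in how far they moved. The counts that follow stand beside 26.6% of all genes tested that rose and 12% that fell. Of the 10 cardiomyocyte markers 7 fell, and their sum went from 22960 to 24140 FPKM in the Control libraries to between 11000 and 13190 FPKM with LPS and between 9134 and 13220 FPKM with LPS+XJDHT. Of 7 neutrophil markers held 5 were tested and all 5 rose, and the 7 summed to 1.23 to 2.72 FPKM in Control, 79.3 to 118 FPKM with LPS and 75.4 to 152 FPKM with LPS+XJDHT; Camp was at 0 in every Control library, and Cxcr2 and Mpo were not listed. Of 8 macrophage and monocyte markers 3 rose, with sums of 138 to 216 FPKM in Control, 76.7 to 227 FPKM with LPS and 84.0 to 175 FPKM with LPS+XJDHT. Lyz2 was the most abundant of these, at 141 ± 29.9 FPKM in Control and 70.3 ± 54.1 FPKM with LPS, and it weighs most in the sum. By mean, Csf1r was also lower with LPS, and Adgre1, Cd68, Mrc1, Ly6c2, Plac8 and Chil3 were higher. Of 7 fibroblast markers 3 rose and 1 fell, with sums of 418 to 516, 735 to 882 and 610 to 976 FPKM, and 1 of 8 endothelial markers rose, with sums of 147 to 176, 167 to 249 and 177 to 233 FPKM in the same order. Most of the fibroblast sum was Dcn, at 304 ± 40.1 FPKM in Control and 651 ± 49.5 FPKM with LPS. The means of Col1a1, Pdgfra and Tcf21 were also higher with LPS, and those of Lum, Dpt and Col1a2 were lower. Of 7 dendritic cell markers 2 were held, 1 of them Bst2, which is counted here as an antiviral gene. The other, Clec9a, was at 1.158 ± 0.175 FPKM in Control and 1.045 ± 0.514 FPKM with LPS. The part of these cells in the rise of the antiviral genes was not tested.

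Whether the decoction changed the antiviral genes in endotoxin-treated hearts is asked by setting LPS+XJDHT against LPS. None of the 45 tested members passed limma in either direction, and 0 of them were at an unadjusted p under 0.05, beside 0.0% of all genes tested that rose and 0.113% that fell (13 genes; 551 at an unadjusted p under 0.05). The median log2 difference was -0.08 over the members and 0.03 over all genes tested, with 31 members lower and 14 higher (57.3% of all genes tested were higher). In 0 members did every LPS+XJDHT library lie above, or every one below, all LPS libraries, which was so upward for 1.95% and downward for 0.86% of all genes. Of the 45 tested members, 37 had a 95% interval within 1 on the log2 scale on both sides. A change of that size either way lay outside these intervals. Those of Ifit1, Ifit2, Ifit3b, Sp100, Mx1, Parp9, Trim30a and Ifi44 reached beyond it. Among the 37 members that had risen with LPS, a set picked partly through the same LPS libraries, 33 had such an interval. The intervals of all 45 were between 0.53 and 3.97 wide, with a median of 0.99.

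Ifit2 had the largest difference below 0, at 17.9, 22.6, 10.5 and 30.8 FPKM in the LPS+XJDHT libraries, and all but LPS 3 of the LPS libraries were above them all (log2 difference -0.66, 95% interval -1.45 to 0.14). Ifit1 was at 93.8, 41.3, 31.4 and 47.5 FPKM and Ifit3 at 234, 71.6, 92.2 and 107 FPKM with LPS+XJDHT, highest in LPS+XJDHT 1 in both, with log2 differences of -0.25 (-1.16 to 0.66) and -0.07 (-0.83 to 0.68). Ifit3b, at 62.8, 23, 16.4 and 36.8 FPKM, had the largest difference above 0 and the widest interval, 1.25 (-0.73 to 3.24). The sum of Ifit3 and Ifit3b was 147 ± 36.6 FPKM with LPS and 161 ± 93.0 FPKM with LPS+XJDHT. Isg15, at 58.5, 37.4, 25.7 and 32.2 FPKM, overlapped the LPS libraries, with a log2 difference of -0.28 (-0.99 to 0.42). Usp18 was at 16.7, 10.8, 8.65 and 12.2 FPKM (log2 difference -0.06, -0.58 to 0.46).

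The intervals of other members also crossed 0. Lgals3bp was at 170.4, 118, 148 and 159 FPKM with LPS+XJDHT, and its log2 difference was -0.02 (-0.29 to 0.25). Ifi204, at 16.7, 15.3, 17.3 and 20.4 FPKM, and Eif2ak2, at 9.25, 7.66, 7.99 and 7.37 FPKM, differed by 0.13 (-0.16 to 0.42) and -0.01 (-0.31 to 0.29). The abundant membrane genes were alike in this: Ifitm3 was at 595, 414, 553 and 605 FPKM and Bst2 at 114, 65.2, 91.4 and 106 FPKM, with log2 differences of -0.01 (-0.39 to 0.36) and -0.12 (-0.44 to 0.21). Among the sensors, Ddx58 at 19.2, 13.8, 12.8 and 17 FPKM and Zbp1 at 23.5, 11.9, 16.7 and 19.7 FPKM differed by 0.04 (-0.35 to 0.42) and 0.13 (-0.46 to 0.72). Rsad2, at 32, 14.1, 17.2 and 18.5 FPKM, differed by -0.10 (-0.78 to 0.57), and Oasl1, at 7.59, 4.73, 3.99 and 6.84 FPKM, by -0.10 (-0.72 to 0.52).

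Rtp4, at 5.8, 7.69, 8.37 and 5.42 FPKM with LPS+XJDHT, had the smallest unadjusted p of the members, 0.069, at a log2 difference of -0.45 (-0.95 to 0.04; limma adjusted p = 0.99). Its groups overlapped only through LPS+XJDHT 3, which lay above LPS 3. Sp100, at 4.02, 4.67, 5.72 and 5.49 FPKM, and Trim30a, at 0.992, 1.88, 0.790 and 0.576 FPKM, had log2 differences of 0.48 (-0.15 to 1.11) and -0.63 (-1.58 to 0.32). Ifi35 was at 10.3, 21.2, 25.1 and 25.1 FPKM, with LPS+XJDHT 1 well below the other 3 libraries (log2 difference -0.30, -0.83 to 0.22). Ifi44 was at 5.89, 1.52, 0.814 and 1.41 FPKM, with LPS+XJDHT 1 highest and the other 3 within the Control range. The remaining members lay between -0.32 (Parp9) and 0.25 (Ifi27). At the level of transcripts, 0 of 91 rose or fell, beside 0.0107% and 0.0858% of all transcripts tested. Of the 91, 2 were at an unadjusted limma p under 0.05, which was not counted over all transcripts. Of the tested pathway genes 0 passed in any list.

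**Figure D4:**
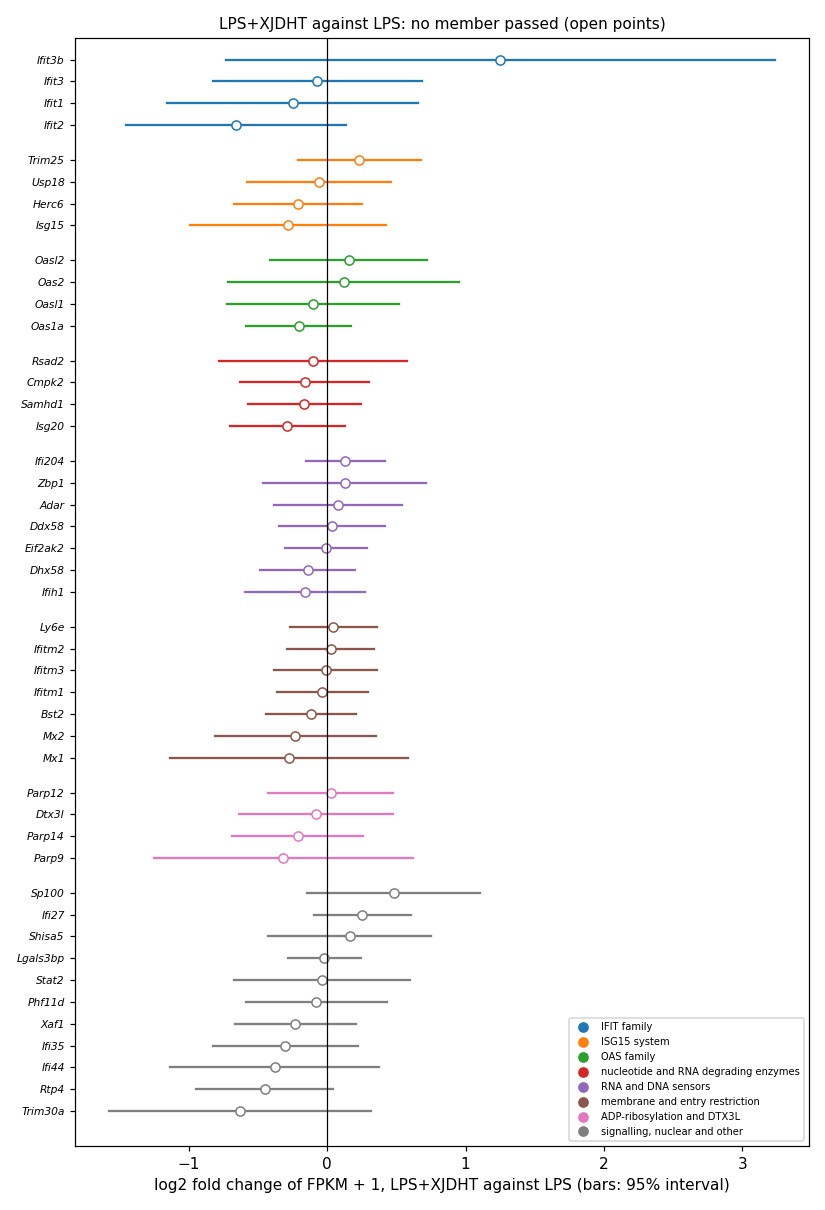
Log2 fold change of FPKM + 1 in LPS+XJDHT against LPS for the 45 tested members (x axis), ordered within each functional class (y axis), with 95% intervals as bars. All points are open because none passed limma; every interval crosses 0, and the widest is that of Ifit3b.

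Against Control, LPS+XJDHT hearts had 37 of 45 tested members higher and 0 lower by limma, beside 28.5% and 10.7% of all genes tested. The split of all calls was 3278 higher and 1234 lower, and 1967 and 2044 under median-ratio scaling, with a median over all genes of 0.003 there. This comparison shares its Control libraries with that of LPS, and its values are given side by side with it, not as further support. The median log2 fold change was 1.32 over the members and 0.19 over all genes, and 37 members were higher in every LPS+XJDHT library than in every Control library (30.2% of all genes). Lgals3bp (4.41), Ifit3 (4.25), Ifit3b (3.90), Ifit1 (3.87) and Zbp1 (3.27) had the largest log2 fold changes; with LPS alone these were 4.42, 4.33, 2.65, 4.12 and 3.14. Isg15 was at 2.54 here and 2.83 there, Ifit2 at 2.17 and 2.83, and Sp100 at 1.84 and 1.36. Oas2, Oasl2, Cmpk2, Mx1, Parp9, Trim30a, Ifi27 and Ifi44 did not pass, although Oasl2 passed by limma-voom (adjusted p = 0.032) and with sample weights (adjusted p = 0.035), and Ifi27 over coding transcripts (adjusted p = 0.038). Oas3 was between 0.314 and 1.09 FPKM. In the pathway lists Irf1, at 0.876, 0.706, 2.82 and 3.81 FPKM, was below every Control value (log2 fold change -1.69, adjusted p = 0.012), and Mavs was again lower (-1.31, adjusted p = 0.00041).

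The libraries of a group differed from each other in how strongly the antiviral genes were raised. The median over the 45 tested members of the log2 level above the Control mean was 1.66, 1.66, 1.17 and 1.52 in LPS 1 to 4 and 1.66, 1.22, 1.39 and 1.45 in LPS+XJDHT 1 to 4. In Control it was between -0.06 and 0.09, and the median over all genes tested was between 0.10 and 0.25 in the 8 treated libraries. LPS 3 was the lowest of its group in 31 of the 37 members that rose, beside 48.5% of all genes that rose with LPS. LPS+XJDHT 2 was the lowest of its group in 23 of the 37 (34.6% of all such genes), and LPS+XJDHT 1 was the highest in 22 (38.3%). The summed FPKM of the members was 372 to 422 in Control, and among the treated libraries it was lowest in LPS 3, at 1464, and LPS+XJDHT 2, at 1435, and highest in LPS+XJDHT 1, at 2243. The neutrophil markers were also at their lowest in these 2 libraries, 79.3 and 75.4 FPKM, whereas the macrophage and monocyte sum was 227 FPKM in LPS 3, the highest of its group, and 84.0 FPKM in LPS+XJDHT 2, the lowest of its group. Lyz2 was the largest part of that sum, at 133 FPKM in LPS 3 and 34.9 FPKM in LPS+XJDHT 2. The cardiomyocyte sum was 12810 FPKM in LPS 3, within its group, and 13220 FPKM in LPS+XJDHT 2, the highest of its group. The part of any of these in the low libraries was not tested.

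**Figure D5:**
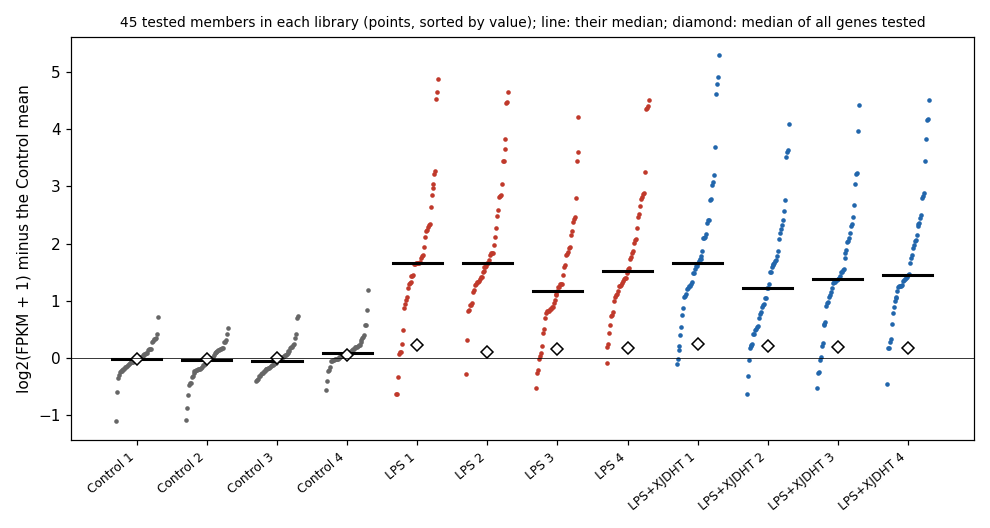
Log2(FPKM + 1) of each of the 45 tested members minus its Control mean (y axis) in the 12 libraries (x axis); points are members sorted by value, the line is their median and the diamond the median of all genes tested. The member medians of the treated libraries lie between 1.17 in LPS 3 and 1.66, well above the diamonds.

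These libraries bear on the comparison of LPS+XJDHT with LPS. Without LPS 3 the median log2 difference over the members was -0.26, and without LPS+XJDHT 2 it was 0.033, in place of -0.08 with all libraries. Under each of these, as with every other library left out in turn, 0 members passed limma. In the comparison of LPS with Control, 37 members also rose without LPS 3, with Mx1 called there (adjusted p = 0.019) and Ifit3b not (adjusted p = 0.083).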

How the data were processed

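RNA of 12 mouse hearts was measured, 4 in each of 3 groups taken from the labels. The deposited files hold 1 FPKM value per transcript and library, made by the authors; the headers name no unit, and FPKM was read from the values, which times transcript length were whole multiples of 1 constant per library (within 0.1) for 98.3% to 98.6% of values, which also gave the fragments per library. The submitters' processing notes name mm10 and limma; the aligner and quantifier were not given in the sources used here. Of the listed transcripts, 36293 in the Control and LPS files and 35802 in those of LPS+XJDHT, 33137 are in both. Gene FPKM was summed over the 24723 of these found in GENCODE M21 (GRCm38), so 13 member transcripts listed in only 1 set were left out, as were assembled transcripts without an Ensembl identifier. Group means of log2(FPKM + 1) were fitted over all 12 libraries, without covariates, in limma 3.58.1 (trended empirical Bayes, R 4.3.3), two-sided, for 3 comparisons, with Benjamini-Hochberg adjustment over the 11509 genes or 18644 transcripts that reached 1 FPKM in at least 4 libraries. Tables and figures were made with Python 3.11.15, pandas 2.3.3, NumPy 2.4.6 and matplotlib 3.10.9. Simulated data had normal noise, and changes were added only to genes with a mean log2(FPKM + 1) of at least 2. Recovery below that level was not tested. For LPS against Control, 83 of 100 genes were recovered at a change of 1 (log2) and 96 of 100 at a change of 2. There were 5 false calls among the unchanged genes of a run of 11509. For LPS+XJDHT against LPS, 63 and 91 of 100 were recovered, with 11 false calls. The members and all lists were chosen with earlier results of these data known. Of the pathway lists, 1 gene is not reported here. All members are named; values of every library are given for up to 4 members a class with the largest LPS change and for each that did not pass, and values for up to 3 genes a pathway list with the smallest adjusted p; other pathway genes were named after their values were seen. Other settings were other pseudocounts, limits and scalings, limma-voom on recovered fragments, sample weights, the compared groups alone, each library left out, every transcript listed for Control and LPS, and coding transcripts alone, the last chosen after seeing the data.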

Additional observations from a re-analysis of the deposited data

Results flagged for a closer look

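Outlying libraries were sought on log2(FPKM + 1), not on FPKM, in 138 groups of 4 libraries, 1 for each member held and group. The gap of the lowest or highest library to its nearest neighbour was divided by the range of the group. In 12 groups (8.7%) this ratio was above Dixon's 95% critical value for groups of this size. Chance gives about 5%. With LPS, LPS 3 was the low library for Ifit1 (0.864) and Eif2ak2 (0.904), LPS 1 for Trim30a (0.840), and LPS 4 was the high library for Ifi204 (0.853) and LPS 2 for Parp9 (0.886). With LPS+XJDHT, LPS+XJDHT 2 was low for Samhd1 (0.860), Ifitm2 (0.865) and Stat2 (0.854), and LPS+XJDHT 3 for Parp9 (0.834). In Control, Control 3 was low for Ifit1 (0.843) and high for Mx1, which was listed at 0 in the other 3 (1.0), and Control 2 was high for Isg20 (0.892).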

How the results depend on the processing

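In each alternative run, 0 members fell with LPS or LPS+XJDHT against Control, and 0 rose or fell with LPS+XJDHT against LPS. Of the 37 members that rose with LPS, 33 kept the call in each setting in which they were tested; some were not tested at a limit of 5 FPKM or over coding transcripts. With LPS the members that rose numbered 33 (limit of 5 FPKM, where fewer were tested) to 38, and 35 to 38 with 1 library left out; with LPS+XJDHT 36 to 37. Ifi27 showed no direction in the main setting (log2 fold change -0.003, limma adjusted p = 0.99). It rose with LPS over protein-coding transcripts only, chosen after seeing the data, at 0.96 (limma adjusted p = 0.018). The median log2 fold change of the members in LPS against Control was 1.94 and 1.71 with pseudocounts of 0.1 and 0.5, 1.77 at a limit of 5 FPKM and 2.01 by limma-voom, and 1.34 to 1.57 with 1 library left out. In LPS+XJDHT against Control it was 1.82 with a pseudocount of 0.1, 1.73 at a limit of 5 FPKM, 1.11 under median-ratio scaling and 1.91 by limma-voom, and 1.28 to 1.43 with 1 library left out. In LPS+XJDHT against LPS it was between -0.26 (without LPS 3) and 0.033 (without LPS+XJDHT 2). The cause of these shifts was not tested. Of all genes that rose or fell in LPS+XJDHT against LPS, 13 in the main setting, there were 43 with no filter, 1 at a limit of 5 FPKM and 13 to 19 with 1 library left out. With 1 library left out, 3808 to 4618 genes changed in LPS against Control and 3720 to 4805 in LPS+XJDHT against Control. Median-ratio scaling moved the split of all genes in LPS against Control from 3063 higher and 1384 lower to 2145 and 2112, with 36 members risen. No paired analysis was possible because the labels give each mouse its own number and name no pair, litter or batch. Depth is even across libraries.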

Other observations

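Transcripts that the authors assembled without an Ensembl identifier carried 6.45% to 6.75% of the summed FPKM in the Control libraries, 7.0% to 8.01% in the LPS libraries and 7.08% to 7.69% in the LPS+XJDHT libraries. Some of this may belong to the genes described, and their genes were not analysed here. The full-length coding transcript Mx1-201 (627 residues) was listed in the LPS+XJDHT files alone, at 0.016, 0.903, 1.08 and 0.110 FPKM, highest in the libraries where Mx1-203, the transcript listed in all files, was at 0. In Ly6e, Ly6e-212 (117 residues) was at 0.015 FPKM or less in all LPS libraries and in 3 LPS+XJDHT libraries, at 5.55 FPKM in LPS+XJDHT 2, and between 1.34 and 6.70 FPKM in Control.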
